A study of Homo sapiens with 32 samples.

Results

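Oxidative phosphorylation gene promoters were followed here as counted ATAC-seq windows centred at most 500 bp from any transcript start of a nuclear protein-coding gene of the respiratory chain or ATP synthase. Genes were taken from GENCODE release 44 on hg38 by the start of their symbol (NDUFA, NDUFB, NDUFC, NDUFS, NDUFV, SDHA, SDHB, SDHC, SDHD, UQCR, COX4, COX5, COX6, COX7, COX8 or ATP5). The rule uses position and name and no measured value, but it was set with earlier results of these data known. It gave 177 of the 212358 counted windows, for 95 of 102 genes. Of these windows 173 passed the filter on low counts and were tested. UQCRHL, COX8C, COX6A2, COX4I2, NDUFA4L2, COX7B2 and COX7A1 had no window. The gene counts include the read-through genes NDUFC2-KCTD14 (complex I) and ATP5MF-PTCD1 (complex V), which are not further subunits. The window of ATP5MF-PTCD1 is also that of ATP5MF. Because the NDUFA and SDHA prefixes also match NDUFAF and SDHAF symbols, 8 complex I and 4 complex II assembly factors were members and were kept apart from the subunits. NDUFA4 was counted with complex IV, to which its protein belongs.

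All libraries were made from 1 clone of HEK293T cells (an immortalised line of human kidney origin) whose ZNF143, a transcription factor, is fused to an inducible degron tag. ATAC-seq uses the Tn5 transposase to cut and tag open DNA, so that counts in a window measure accessibility. The treated cells received 50 nM dTAGV-1 for 30 min, a compound that brings the tagged protein to a ubiquitin ligase, and the control cells received DMSO; both carry the tag. Counts covered 8 control and 8 dTAGV-1 libraries, replicates 9 to 16 of the study. ZNF143 protein was not analysed here, so the extent of its loss in each library is unknown. The labels do not say that replicates were separate cultures, so p-values measure the spread between these libraries. In bulk nuclei, a window open in fewer cells and a window less open in every cell cannot be told apart.

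Oxidative phosphorylation passes electrons from NADH and succinate through complexes I to IV to oxygen, and the proton gradient so built drives ATP synthase, called complex V. Most subunits are encoded in the nucleus, at compact promoters known for binding NRF1, the ETS factor GABP and YY1. ZNF143 is a zinc finger activator that binds promoters just upstream of transcript starts, at a site built around a short core that can be preceded by a longer stretch.

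The following sequences carry the comparison, because they lie in the 2 member windows that fell and in 3 of the 4 with the next smallest p-values. UQCRB, whose p lies between those of NDUFV1 and NDUFB2, holds no short element within 100 bp of its window centre and is not shown. They were read from hg38, 5′ to 3′ on the strand named, and capitals mark CCCAGNA, called the short element below, or, in NDUFB2, the ZNF143 core. The short element was chosen after the sequences of the windows with the smallest p-values had been read, so its presence in them is a description.
ATP5F1D, chr19:1241627-1241681 (plus strand): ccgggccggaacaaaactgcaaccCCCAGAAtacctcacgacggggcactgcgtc
NDUFA1, chrX:119871824-119871852 (minus strand): tcgcctctcttCCCAGCAagccccgcggc
NDUFA1, chrX:119871863-119871891 (plus strand): cctttcaaggaCCCAGAAgtagggttttg
ATP5F1A, chr18:46104283-46104311 (plus strand): aaaccacaactCCCAGAAatcccgggccc
NDUFV1, chr11:67606776-67606804 (plus strand): ggaccacatctCCCAGAAgccccggcgcc
NDUFB2, chr7:140696926-140696983 (minus strand): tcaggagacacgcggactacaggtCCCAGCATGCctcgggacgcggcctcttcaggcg
In these lines the capitals read CCCAGAA in ATP5F1D, ATP5F1A, NDUFV1 and the plus strand of NDUFA1, and CCCAGCA in the minus strand of NDUFA1.

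A longer stretch, ACTACANNNCCCA, called the long site below, was searched as well and was chosen in the same way. It lay within 100 bp of the window centre in 6 member windows, 1 of which is the NDUFB2 window printed above. The other 5 windows are shown because they hold this stretch, marked in capitals, and none of them passed the test.
COX7C, chr5:86617790-86617850 (plus strand): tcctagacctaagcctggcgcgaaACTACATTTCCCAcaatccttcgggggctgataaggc
COX7C, chr5:86617842-86617902 (plus strand): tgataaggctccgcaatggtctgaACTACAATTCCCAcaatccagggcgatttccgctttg
NDUFB10, chr16:1959451-1959511 (plus strand): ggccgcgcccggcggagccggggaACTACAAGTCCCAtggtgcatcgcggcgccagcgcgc
UQCR10, chr22:29767278-29767338 (plus strand): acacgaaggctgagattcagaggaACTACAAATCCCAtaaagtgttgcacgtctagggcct
COX7B, chrX:77899321-77899381 (plus strand): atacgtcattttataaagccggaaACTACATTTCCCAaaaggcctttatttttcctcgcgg
ATP5PO, chr21:33915900-33915928 (minus strand): tgctaagaACTACAACTCCCAgcccgagg
The remaining ZNF143 core within 100 bp of a member window's centre was in ATP5PF, again in capitals.
ATP5PF, chr21:25734942-25734971 (minus strand): gaaacggcggCCCATAATGCattgcgatgg

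Accessibility fell at 2 of the 173 tested windows and rose at none, in the edgeR quasi-likelihood test, adjusted over all tested windows by the Benjamini-Hochberg method. These were the start windows of ATP5F1D in complex V and NDUFA1 in complex I. Over all 185040 tested windows, 0.213% fell and 0.00108% rose, and among the 31702 tested windows near coding starts 0.628% fell. At an unadjusted p under 0.05, 5 member windows were lower and 0 were higher, beside 1.55% lower and 1.3% higher over all tested windows. Of the 31702 tested windows near coding starts, 711 were lower and 266 higher at this threshold, so promoter windows in general leaned lower. No member window had all 8 dTAGV-1 libraries below all 8 control libraries, which held for 0.0713% of all tested windows. The fitted log2 fold change, dTAGV-1 over control, had a median of -0.0077 over the members (-0.022 without replicates 11 and 12), 0.011 over windows near coding starts and 0.0077 over all tested windows. It was negative at 93 member windows, or 53.8%, against 45.9% near coding starts and 48.2% overall. The members' median standard error was 0.14, so a p that misses the threshold does not show that a window kept its level.

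Of the 16 libraries, 13 held between 6742589 and 13671039 counts, and the 3 shallowest stood apart. Control replicate 12 held 2275856 counts, dTAGV-1 replicate 12 held 3373219 and dTAGV-1 replicate 11 held 4642812. The top decile of windows by level took 30.8%, 37.6% and 40.2% of their counts, against 44% in control replicate 11 and 46.3% to 47.3% in the other 12. The members are mostly strong windows, so member calls that change, and medians that turn sign, without replicates 11 and 12 of both groups are also given without them. All 7 kidney-line markers searched (PAX2, LHX1, NEFM, NEFL, KRT8, KRT18 and VIM) had windows near their starts. Of 20 such windows 19 were tested, at 2.17 to 4.41 log2 CPM. None of the tested windows was at LHX1, which did not pass the filter on low counts. Of 10 markers of blood, liver, endothelial and stromal cells, 4 had a window, 7 windows were tested with a median of 1.14, and PTPRC, CD3E, ALB, AFP, APOA2 and PECAM1 had none.

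**Figure D1:**
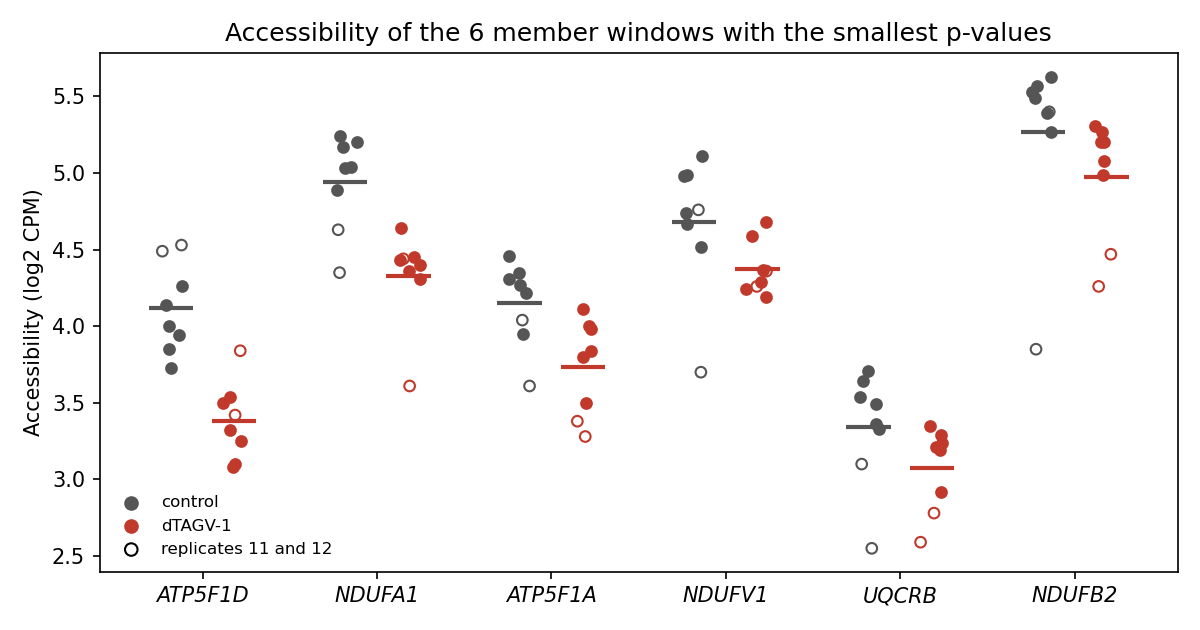
Accessibility (log2 CPM, vertical axis) of the 6 member windows with the smallest p-values, 1 point per library, control in grey and dTAGV-1 in red, with bars at the group means and open points for replicates 11 and 12. At ATP5F1D 7 of 8 dTAGV-1 libraries lie below the lowest control library, and at NDUFA1 2 of 8 do.

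Complex I takes electrons from NADH. Its 38 genes had 73 windows, of which 71 were tested, 1 fell and 2 had an unadjusted p under 0.05 (0.213% of all tested windows fell). The median log2 fold change was -0.025 (-0.038 without replicates 11 and 12), with a range of -0.63 to 0.15, and 44 windows (62.0%) were negative. NDUFA1 encodes a small subunit of the membrane arm. Its window at chrX:119871580-119871980, centred 52 bp upstream of the start in intergenic sequence, had control levels of 4.35, 5.04 and 5.24 log2 CPM, a log2 scale of counts scaled to library size (lowest, median and highest). The dTAGV-1 levels were 3.61, 4.42 and 4.64. The groups overlap: 2 of 8 dTAGV-1 libraries were below the lowest control library and all 8 were below the control median. The mean went from 4.94 ± 0.31 to 4.33 ± 0.31 log2 CPM (SD, n = 8 each). The fitted log2 fold change was -0.63 (SE 0.15), leaving 64.6% of control accessibility, with an adjusted p of 0.0369 by edgeR's quasi-likelihood test.

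The overlap at NDUFA1 came from replicates 11 and 12. The other 6 control libraries lay at 4.89 to 5.24 and the other 6 dTAGV-1 libraries at 4.31 to 4.64. Without replicates 11 and 12 of both groups the log2 fold change was -0.67, with an edgeR adjusted p of 3.94e-09. With all 16 libraries the call was near its threshold. It was lost in 12 of the 16 fits that each left out 1 library, with edgeR adjusted p up to 0.201 (without control replicate 14), and without a filter on low counts (edgeR adjusted p = 0.0915). The same window lies within 500 bp of the start of RNF113A, a gene of the splicing machinery, and the counts cannot be assigned to either gene. A second NDUFA1 window, 290 bp downstream of the start in an intron and overlapping the first, had a log2 fold change of -0.005 (SE 0.13), with mean levels of 3.63 log2 CPM without and 3.65 with dTAGV-1.

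NDUFV1 encodes the flavin-carrying subunit that accepts electrons from NADH. Its window at chr11:67606653-67607053, centred 47 bp upstream of the start, had control levels of 3.70, 4.75 and 5.11 and dTAGV-1 levels of 4.19, 4.32 and 4.68 log2 CPM. The groups overlap, because control replicate 12 was the lowest of all 16 libraries, while all 8 dTAGV-1 libraries were below the control median. The log2 fold change of -0.37 (SE 0.15) did not pass the test (edgeR adjusted p = 1). Without control replicate 12 the edgeR adjusted p was 0.0468, and without replicates 11 and 12 of both groups it was 0.00193.

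NDUFB2, an accessory subunit of the membrane arm, holds both the core and the long site in its window at chr7:140696763-140697163, centred 25 bp upstream of the start. Control levels were 3.85, 5.45 and 5.63 and dTAGV-1 levels were 4.26, 5.14 and 5.31 log2 CPM. All dTAGV-1 libraries were below the control median but none was below the lowest control library, which was again replicate 12. The log2 fold change was -0.34 (SE 0.17, edgeR adjusted p = 1). The edgeR adjusted p was 0.0217 without replicates 11 and 12 of both groups and 0.0481 with offsets that follow abundance, fitted per library. Overlapping NDUFB2 windows of similar level changed less and were called in no fit. That at chr7:140696488-140696888 (5.14 log2 CPM) had -0.053 (SE 0.15), and that at chr7:140696959-140697359 (5.19) had -0.084 (SE 0.17).

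NDUFC1 and NDUFA3 encode further accessory subunits. At NDUFC1 the window 406 bp downstream of the start had control levels of 2.61, 2.83 and 3.20 and dTAGV-1 levels of 2.31, 2.56 and 3.25 log2 CPM. There 5 of 8 dTAGV-1 libraries were below the lowest control library and 1 was above the highest. The log2 fold change was -0.26 (SE 0.15, edgeR adjusted p = 1). The strongest NDUFC1 window, 77 bp downstream of a start and at 5.58 log2 CPM on average, had -0.071 (SE 0.15). NDUFA3 had the weakest window of all members, at 0.72 log2 CPM on average, with a log2 fold change of -0.46 (SE 0.28, edgeR adjusted p = 1) and overlapping groups. NDUFA11, another membrane-arm subunit, had the strongest member window, at 6.50 log2 CPM on average, and its log2 fold change was 0.014 (SE 0.15). That window is centred 494 bp upstream of the NDUFA11 start and also lies near a start of VMAC.

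The complex I assembly factors NDUFAF1 to NDUFAF8 build the complex and are not part of it. Of their 20 tested windows none fell or rose, and 0 had an unadjusted p under 0.05. The log2 fold changes ran from -0.15 to 0.11 with a median of -0.013 (-0.034 without replicates 11 and 12). The smallest p-values belonged to the windows of NDUFAF4 (-0.15, SE 0.18), NDUFAF6 (0.11, SE 0.15; 0.035 without replicates 11 and 12) and NDUFAF1 (-0.099, SE 0.14), each with an edgeR adjusted p of 1 and overlapping groups. NDUFAF6 had the most windows of any member gene, 7, and their log2 fold changes stayed between -0.084 and 0.11. NDUFAF8 had the strongest window of the assembly factors, at 6.18 log2 CPM on average, shared with a start of TEPSIN.

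Complex II oxidises succinate and is encoded entirely by SDHA, SDHB, SDHC and SDHD. Of its 6 tested windows none fell or rose, 1 had a negative fold change, and the median was 0.06 (0.097 without replicates 11 and 12). At the iron-sulphur subunit SDHB, control levels were 4.21, 4.68 and 4.77 and dTAGV-1 levels 4.28, 4.53 and 4.93 log2 CPM. The groups overlapped fully, and the log2 fold change was -0.044 (SE 0.13, edgeR adjusted p = 1). The membrane anchor SDHC had a start window at 0.15 (SE 0.14; 0.081 without replicates 11 and 12) and an intronic window 497 bp downstream at 0.22 (SE 0.16), and the other anchor, SDHD, had 0.064 (SE 0.14; 0.11 without them). Its window also lies near a start of TIMM8B. The assembly factors SDHAF1 to SDHAF4 had 7 tested windows with log2 fold changes of -0.24 to 0.09 and a median of 6.2e-05 (-0.025 without replicates 11 and 12), and none fell or rose. Among these, SDHAF2, which attaches flavin to SDHA, had 0.094 (SE 0.14), and SDHAF1 had -0.24 (SE 0.16) at a window in its coding exon.

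Complex III passes electrons from ubiquinol to cytochrome c. Its 8 genes with windows had 14 tested windows, of which none fell or rose and 1 had an unadjusted p under 0.05. The log2 fold changes ran from -0.30 to 0.28 with a median of 0.036 (0.016 without replicates 11 and 12). At UQCRB, a subunit at the ubiquinone site, the window 206 bp downstream of the start had control levels of 2.55, 3.42 and 3.71 and dTAGV-1 levels of 2.59, 3.20 and 3.35 log2 CPM. All 8 dTAGV-1 libraries were below the control median and 0 were below the lowest control library. The log2 fold change was -0.30 (SE 0.14, edgeR adjusted p = 1). A stronger UQCRB window, 85 bp upstream of the start and at 4.83 against 3.27 log2 CPM on average, had -0.11 (SE 0.14). The intronic window of UQCRFS1, the Rieske iron-sulphur protein, had 0.28 (SE 0.20, edgeR adjusted p = 1), with control replicate 12 at -0.02 and the other control libraries at 1.02 to 1.89 log2 CPM. Without replicates 11 and 12 of both groups it had 0.10. The core protein UQCRC2 had 0.11 (SE 0.13), and UQCRQ, with the strongest window of the complex at 5.82 log2 CPM, had -0.041 (SE 0.15).

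Complex IV reduces oxygen. Of its 24 tested windows, from 13 genes, none fell or rose, 0 had an unadjusted p under 0.05, and 7 (29.2%) had a negative fold change. The median was 0.044 with all libraries and -0.0057, of the other sign, without replicates 11 and 12. The highest fitted value of any member, 0.44 (SE 0.27, edgeR adjusted p = 1), was at a weak window of COX7A2L, a protein that helps to join complexes III and IV. Its control levels were 0.66, 0.84 and 2.35 and its dTAGV-1 levels were -0.15, 1.45 and 2.26 log2 CPM. The dTAGV-1 libraries spanned nearly the whole control range, but the top of that range was control replicate 12 alone. The other control libraries lay at 0.66 to 1.11. The log2 fold change was 0.30 to 0.61 in the alternative fits, none of which called the window. The strongest of the 4 COX7A2L windows, at 4.69 log2 CPM, had 0.099 (SE 0.14). COX7A2 had 0.22 (SE 0.14, edgeR adjusted p = 1) at an intronic window.

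COX7C, a small subunit, holds a pair of long sites and a short element within 100 bp of the centre of its window at chr5:86617665-86618065. Control levels were 3.70, 4.72 and 5.04 and dTAGV-1 levels were 4.01, 4.54 and 4.87 log2 CPM. The groups overlap, with no dTAGV-1 library below the lowest control library, and the log2 fold change was -0.17 (SE 0.15, edgeR adjusted p = 1). COX6A1 had the strongest window of the complex, at 5.83 log2 CPM, with 0.0017 (SE 0.14), and COX6C, at 3.39, the lowest when each gene is taken by its strongest window, with -0.012 (SE 0.13).

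Complex V makes ATP. Of its 31 tested windows, from 20 genes, 1 fell, none rose and 2 had an unadjusted p under 0.05, with 21 (67.7%) negative and a median of -0.038 (0.213% of all tested windows fell). ATP5F1D encodes a subunit of the rotating central stalk. Its single window, chr19:1241495-1241895, centred 51 bp upstream of the start in intergenic sequence, had control levels of 3.73, 4.07 and 4.53 log2 CPM. The dTAGV-1 levels were 3.08, 3.37 and 3.84. Of the dTAGV-1 libraries 7 were below the lowest control library, and replicate 11, at 3.84, overlapped the control range. The mean went from 4.12 ± 0.29 to 3.38 ± 0.25 log2 CPM (SD, n = 8 each). The log2 fold change was -0.74 (SE 0.14), leaving 59.7% of control accessibility, with an adjusted p of 0.00278 by edgeR's quasi-likelihood test. The window was called in all 22 alternative fits, with edgeR or DESeq2 adjusted p of 5.66e-08 to 0.0196 and log2 fold changes of -0.81 to -0.68. At this window replicates 11 and 12 were not low: they were the highest controls, at 4.49 and 4.53.

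ATP5F1A encodes a subunit of the catalytic head. Its window at chr18:46104118-46104518, centred 16 bp downstream of the start in a UTR and also near a start of HAUS1, a spindle protein gene, had control levels of 3.61, 4.24 and 4.46 log2 CPM. The dTAGV-1 levels were 3.28, 3.82 and 4.11, with 3 of 8 below the lowest control library and all 8 below the control median. The log2 fold change was -0.41 (SE 0.14), which did not pass the test (unadjusted p = 0.0057, edgeR adjusted p = 1). With the offsets by abundance the edgeR adjusted p was 0.0383. The other 4 windows of ATP5F1A had -0.047 to 0.18, and none passed.

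The remaining complex V windows named by rule did not pass either. ATP5MF, a membrane subunit, had -0.17 (SE 0.13, edgeR adjusted p = 1), with 2 of 8 dTAGV-1 libraries below the lowest control library. ATP5PF, a peripheral stalk subunit whose window holds a ZNF143 core and is shared with a start of GABPA, had control levels of 4.48, 5.42 and 5.56 and dTAGV-1 levels of 4.52, 5.46 and 5.60 log2 CPM. Those groups overlap almost throughout, and the log2 fold change was -0.035 (SE 0.16, edgeR adjusted p = 1) and, without replicates 11 and 12, 0.028. ATP5F1B, the catalytic subunit beside ATP5F1A, had the strongest window of the complex at 6.43 log2 CPM, with -0.04 (SE 0.17). ATP5MGL, at 0.88, had the lowest when each gene is taken by its strongest window.

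**Figure D2:**
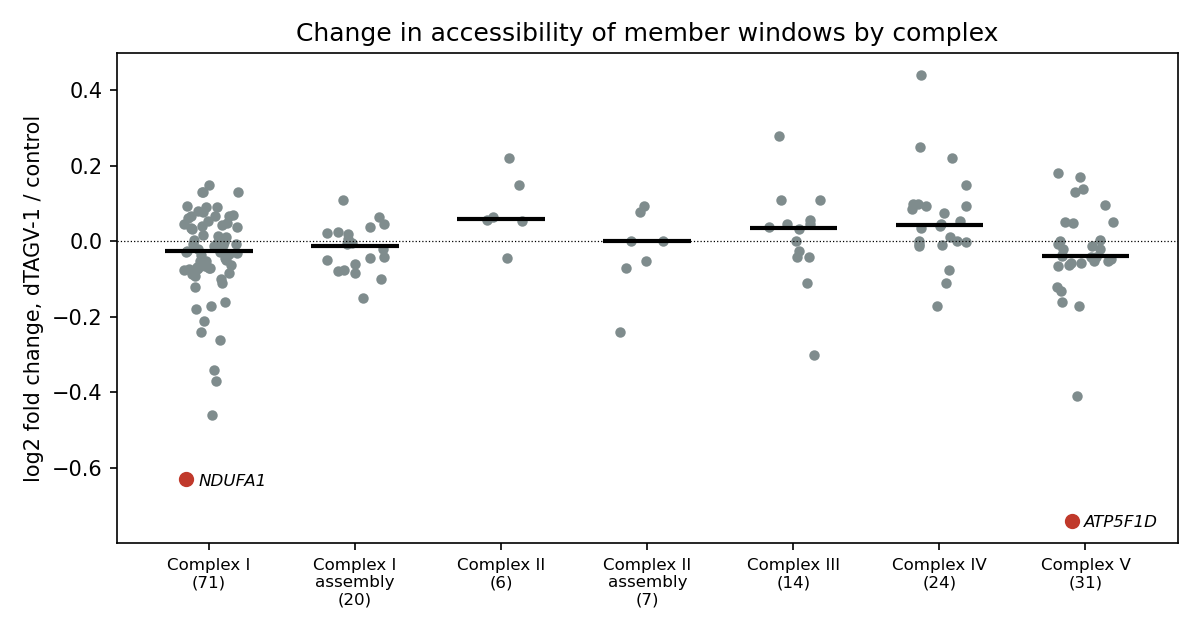
Log2 fold change of accessibility, dTAGV-1 over control (vertical axis), of the 173 tested member windows by complex, with the number of windows in parentheses. Grey points did not pass the test, red points did (adjusted p below 0.05), and bars are medians, which lie between -0.038 and 0.06.

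Member windows were more accessible than most promoters. Their median level was 3.82 log2 CPM, against 3.20 for tested windows near coding starts and 1.46 for all tested windows. It exceeded that of 66.8% of windows near coding starts, and 73 members (42.2%) were above their upper quartile, 4.17. Medians per complex ran from 3.59 in complex II assembly factors and 3.60 in complex I to 4.45 in complex II, with ranges that overlapped throughout. The windows that fell were not extreme in level: ATP5F1D, at 3.80, exceeded 66.4% of windows near coding starts, and NDUFA1, at 4.71, exceeded 85.5%. The authors' −log10 q, a value per window from their peak calling, had a median of 432 over tested members and 150 over tested windows near coding starts. Of the tested members 88.4% held a summit of the separately deposited list for replicates 1 to 8, against 72.3% near coding starts and 81.2% overall.

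**Figure D3:**
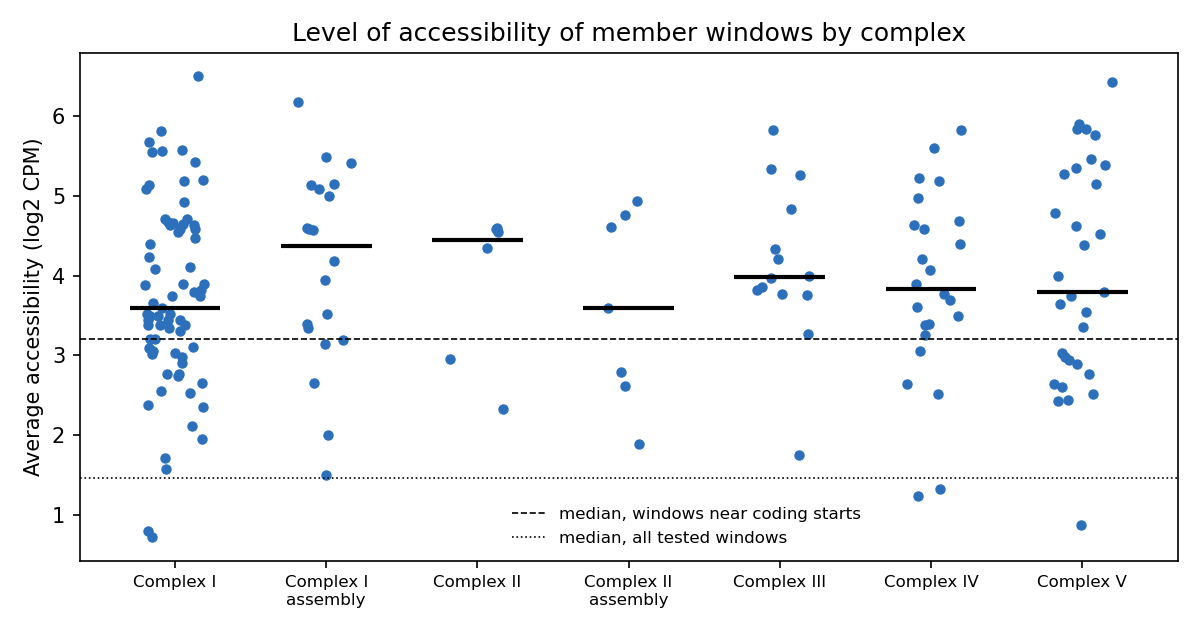
Average accessibility (log2 CPM over all 16 libraries, vertical axis) of the tested member windows by complex, 1 point per window with bars at the medians. The dashed line is the median of tested windows near coding starts, 3.20, and the dotted line that of all tested windows, 1.46.

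All member windows lie near starts by the rule that chose them. The strongest window of a gene was centred a median of 46 bp upstream of the nearest of its annotated starts. This distance was not compared with that of other genes. Of the genes, 36 had 1 window, 45 had 2 and 14 had 3 or more, and 79 windows (44.6%) overlapped another member window and so share counts with it. The 3 members nearest the outer limit of 500 bp had log2 fold changes of -0.03 to 0.22, and the 5 windows just beyond it had -0.11 to 0.29. A start of another coding gene lay within 500 bp of 68 member windows (38.4%, 40 genes), against 7.79% of the 32759 other windows near coding starts. Of the 68 shared windows 1 fell (NDUFA1 with RNF113A), and of the 105 unshared ones 1 fell (ATP5F1D). The median log2 fold changes were -0.0078 and -0.0077.

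**Figure D4:**
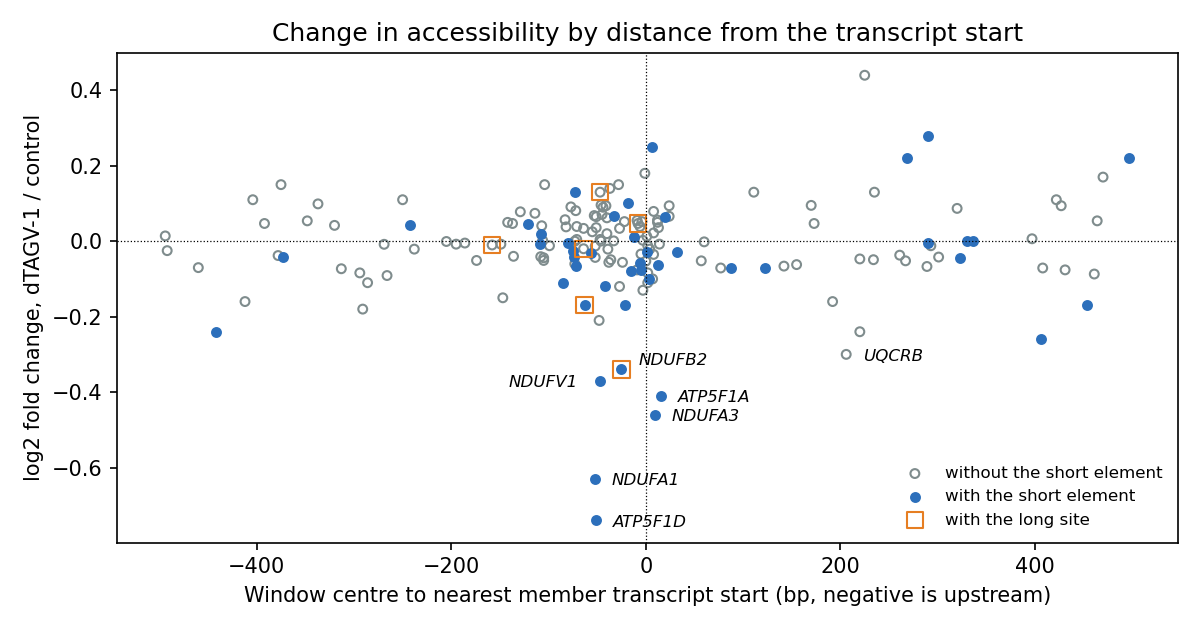
Log2 fold change, dTAGV-1 over control (vertical axis), against the distance from the window centre to the nearest member transcript start (horizontal axis, bp, negative is upstream), 1 point per tested member window. Filled points hold the short element and squares the long site within 100 bp of the centre; ATP5F1D and NDUFA1 lie 51 and 52 bp upstream, and both hold the short element.

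Letters of several factors were counted on either strand, up to 100 bp from the centre of each window, as a description of the sequence and not of binding. The NRF1 sequence GCATGCGC was in 19 of the 173 member windows (11%) and in 2.48% of the 31529 other windows near coding starts, with members at SDHB, SDHD, UQCRC2, COX5B, COX6A1 and ATP5F1C among others. The YY1 sequence AAGATGGCG was in 6.94% against 1.34%, and the ETS sequence CCGGAAGT in 8.09% against 3.33%. CCAAT, read by NFY, was in 22.0% against 21.7%, and the SP and KLF sequence GGGGCGGGG in 10.4% against 16.5%. No member window with any of these 5 sequences fell.

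The ZNF143 core was in 2 member windows (1.16%; NDUFB2 and ATP5PF), 0.907% of the other windows near coding starts, and 15.2% of the 197 other windows near coding starts that fell. The long site was in 3.47% of members, 1.61% of the other windows near coding starts and 58.4% of those that fell. None of the 6 members with a long site (NDUFB2, NDUFB10, UQCR10, COX7C, COX7B and ATP5PO) fell. Most other windows with it did not fall either: of 508 other windows near coding starts that held it, 115 fell. The log2 fold changes of the 6 members with a long site ran from -0.34 at NDUFB2 to 0.13 at NDUFB10, with a median of -0.015. The short element was in 45 members (26%), 22.2% of the other windows near coding starts and 59.4% of those that fell. It is part of many full ZNF143 sites and overlaps both other patterns. Both members that fell and 4 of the 5 with an unadjusted p under 0.05 held it, UQCRB being the other one. The median log2 fold change was -0.042 with it and 0.00058 without it. That count and these medians include the windows from which the element was chosen, so they are a description and no test of it.

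Other genes of the pathway were read from the same fit. Among 9 further subunits and carriers, including cytochrome c (CYCS) and CYC1, 16 windows were tested, none fell or rose, and 1 had an unadjusted p under 0.05, at HIGD2A (-0.33, SE 0.14). Among 46 further assembly factors, 45 with windows, 82 windows were tested, 1 fell and none rose (0.213% of all tested windows fell). Among these windows 5 had an unadjusted p under 0.05, 4 lower and 1 higher. The higher one was a weak COX16 window 464 bp downstream of a start (0.68, SE 0.24). The window that fell was that of COA3, a complex IV assembly factor. Its mean went from 4.10 ± 0.49 to 3.52 ± 0.28 log2 CPM (SD, n = 8 each). The log2 fold change was -0.64 (SE 0.15), with 0.0446 as edgeR adjusted p. The groups overlap, with 1 of 8 dTAGV-1 libraries below the lowest control library. The call is near its threshold, and alternative fits were not read for this window. A window 99 bp upstream of a start of COX16, which also serves complex IV, had -0.62, with an edgeR adjusted p of 0.0569. A stronger COX16 window, 3 bp downstream of another start, had 0.09 (SE 0.14), at 3.77 against 2.86 log2 CPM. The start window of DMAC1, which serves complex I, had -0.52, with an edgeR adjusted p of 0.089. At DMAC1 all 8 dTAGV-1 libraries were below all 8 control libraries. Of 23 tested windows of 9 regulators, among them NRF1, GABPA, YY1 and TFAM, none fell or rose. The smallest p there was at PPRC1, a coactivator of NRF1, with -0.63 (SE 0.16, edgeR adjusted p = 0.0788).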

How the data were processed

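ATAC-seq counts of 8 control and 8 dTAGV-1 libraries, grouped by the labels, were analysed. Per the submitters' processing notes, cutadapt 1.8.1, Bowtie2 2.4.4 and SAMtools 1.9 were used with hg38. The peak caller, the counting tool and any Tn5 shift are not given in the sources used here. The deposited table holds raw whole-number counts per window of fixed length. Beside them the authors gave a −log10 q per window, and a deposited summit list of replicates 1 to 8 gives a −log10 score; both were used only as descriptions.

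Counts were fitted in edgeR 4.0.16 (R 4.3.3) with filterByExpr, TMM scaling and the quasi-likelihood test, with Benjamini-Hochberg adjustment over 185040 windows at 0.05. Log2 CPM used a prior count of 2. The 4 members not tested were 2 windows of NDUFA6 and 1 each of NDUFAF1 and SDHA. Named with values were called windows, the 3 smallest p-values in each group of genes, the strongest and weakest gene of each group, and windows with a ZNF143 core. Other windows are named for the long site. Members and lists were chosen with earlier results of these data known.

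Over 56 replicate pairs the chi-square per degree of freedom was 1.65 to 4.89. All 16 libraries were counted as replicates, though this value does not show that they were separate cultures. On simulated counts the fit called 93% of changes of 1 log2 and 12% of changes of 0.5 log2. The changed windows were drawn from those at or above the median level of all tested windows, 1.46 log2 CPM. The members' median was 3.82, and the shares at their levels were not simulated. Alternatives were DESeq2 1.42.0 and its size factors, offsets by abundance (loess), no filter, a replicate block, libraries left out, and other distances and transcript sets. Motifs and annotation were read with pysam 0.24.0 in Python 3.11.15.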

Additional observations from a re-analysis of the deposited data

Results flagged for a closer look

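Outlying libraries were sought in each group of 8 by Dixon's test, which divides the gap between an extreme value and the next one by the whole range. Of 66 groups tested at 33 named windows, 20 held such a value, and chance alone marks about 1 in 20 groups. Control replicate 12, the shallowest library, gave 17 of them. It was low at 15 windows, with log2 CPM of 3.47 at SDHC, 3.89 at SDHAF2, 3.70 at NDUFV1, 5.50 at ATP5F1B, 5.23 at COX6A1, 5.13 at NDUFAF8, -0.02 at UQCRFS1, 4.48 at ATP5PF, 3.70 at COX7C, 5.08 at UQCRQ, 2.64 at COX7A2, 3.82 at SDHAF3, 3.85 at NDUFB2, 2.12 at NDUFAF6 and 2.80 at COX6C. It was high at 2 weak windows, 2.35 at COX7A2L and 2.35 at ATP5MGL.

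In dTAGV-1 libraries, replicate 11 was low at NDUFA1 (3.61, the others at 4.31 to 4.64), replicate 12 was low at NDUFAF1 (2.94, the others at 3.28 to 3.55) and replicate 14 was high at NDUFC1 (3.25, the others at 2.31 to 2.74). Without dTAGV-1 replicate 11 the log2 fold change at NDUFA1 was -0.56, with an edgeR adjusted p of 0.112.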

How the results depend on the processing

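The ATP5F1D window was called in every alternative fit, and no member window was called higher in any. The number of member windows called lower, 2 with all libraries, was 4 with offsets by abundance (of 683 calls over the whole table, against 397), 1 without a filter on low counts, 5 with a replicate block (of 753 calls) and 4 without replicates 11 and 12 of both groups (of 781 calls). Leaving out 1 library gave 1 to 3 member windows and 321 to 632 calls over the whole table, the highest of both without control replicate 12. With 1 library left out, NDUFA1 was called without control replicate 11 or 12 or dTAGV-1 replicate 12 or 13 and lost in the other 12 fits; the cause was not tested. With the replicate block the added windows were ATP5F1A, NDUFB2 and NDUFV1, with edgeR adjusted p of 0.0103, 0.0393 and 0.0172. The labels tie libraries across groups by number only. Correlations of same-numbered deviations were 0.0276 to 0.336, and 5 of 8 numbers correlated best with their own. Small fold changes turned sign at ATP5PF (0.028 without replicates 11 and 12 of both groups, -0.11 to 0.046 with 1 library left out), at NDUFAF1 (-0.15 to 0.0075 with 1 left out) and at SDHAF3 (-0.0078 to 0.12 with 1 left out). The median over all members ran from -0.06 (without control replicate 12) to 0.029 (without dTAGV-1 replicate 12). With 8 libraries a group, members' fold changes had a median standard error of 0.14; how much of it comes from depth was not tested.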
